A study of Mus musculus with 6 samples.

Results

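The Notch receptors Notch1, Notch2 and Notch3, the ligands Dll1, Dll3, Jag1 and Jag2, and the target genes Hes1, Hey1 and Hey2 were followed in epiblast-like cells (EpiLCs) with and without Smad2 and Smad3. They are the 10 genes of a named list of Notch genes, out of 24288 gene symbols in the expression table, and each was represented by 1 row, the one with the most reads. All 10 were present and all 10 passed the filter on low values. EpiLCs are embryonic stem cells (ESCs) moved from naive medium into activin A and Fgf2, and they model the early post-implantation epiblast. Smad2 and Smad3 are the transcription factors that carry Nodal and activin signals to the nucleus, and the comparison asked which transcripts differ when both are missing.

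The wild-type (WT) group was 3 libraries from the CCE line, an XY ESC line of strain 129/Sv//Ev. The double knockout (DKO) group was 3 libraries from 1 clone, KT15.1F6, made by deleting exon 1 of Smad3 with a CRISPR nickase in ESCs that already carried the Smad2 tm1Rob null allele on both chromosomes. The clone is likewise XY and of strain 129/Sv//Ev. Within a genotype the libraries came from independent differentiations. All ESCs were grown in N2B27 with 1 µM PD0325091, 3 µM CHIR99021 and 1000 U/ml LIF. All EpiLCs then received 12 ng/ml Fgf2, 20 ng/ml activin A and 1% KSR on fibronectin for 48 hours, so DKO and WT cells alike were under activin and Fgf stimulation on day 2. With 1 line per genotype, the effect of the genotype and other differences between the lines cannot be told apart.

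Notch signalling passes between touching cells. A ligand of the Delta or Jagged family on one cell pulls on a receptor on its neighbour, the receptor is cut first by an Adam protease and then within the membrane, and its freed intracellular domain joins the DNA-binding protein Rbpj and a Maml coactivator in the nucleus. The best known targets encode repressors of the Hes and Hey families, which hold back differentiation. In the mouse embryo the pathway is known for the segmentation of somites and for the upkeep of neural progenitors.

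The recovered depth was 57644143 to 63046034 reads per library over 1 row per gene, and no pair of libraries agreed within sampling noise. Values are normalized reads, that is, reads counted over a gene body, introns included, and divided by 1 size factor per library. Smad3 fell from 799, 846 and 873 normalized reads in the WT libraries to 21.5, 30.5 and 18.7 in DKO. The log2 fold change came to -5.12 ± 0.13 (SE, limma adjusted p = 7.91e-22), the direction that the labels give. Smad2 gave 4520.3 ± 86.3 in WT and 5062 ± 109 in DKO (SD, n = 3 per group) and was not called. This is no check of that allele, because reads over the whole gene body need not show a null allele. Of 8 epiblast markers, Pou5f1, Otx2 and Dnmt3b were abundant in both genotypes and not called, Fgf5, Pou3f1, Sox3 and Tdgf1 were lower in DKO and Sox2 was higher.

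Of the 10 genes, 5 fell in DKO cells (Notch3, Dll1, Dll3, Hes1 and Hey1), none rose and 5 were not called, against 15.4% of the 17038 tested genes called changed and 8.04% called lower. Calls needed an adjusted p below 0.05 together with a difference of more than 1.5-fold. Each class of the pathway held at least 1 lowered member, with 1 of 3 receptors, 2 of 4 ligands and 2 of 3 targets. WT and DKO values did not overlap for 9 of the 10, but neither did they for 59.0% of all genes. Without the fold threshold 8 of the 10 passed, beside 53.4% of all genes. The median log2 fold change was -0.80 for the 10 and 0.00 for all genes. The cells were sequenced in bulk, so fewer cells that express a gene and less of its RNA per cell cannot be told apart.

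**Figure D1:**
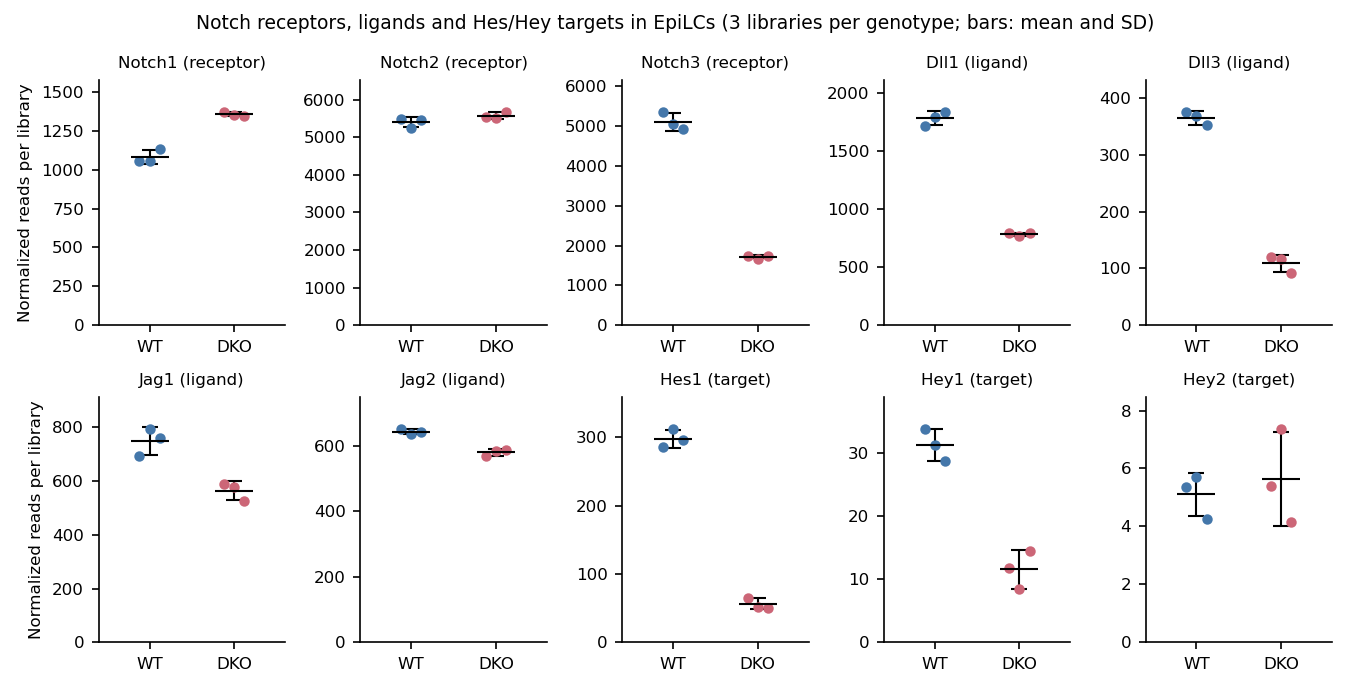
Normalized reads (y axis, from 0, a separate scale in each panel) of the 10 Notch genes in the 3 WT and 3 DKO libraries. Points are libraries and bars show the mean and SD. The WT and DKO points lie apart in every panel but that of Hey2, with DKO below WT for Notch3, Dll1, Dll3, Jag1, Jag2, Hes1 and Hey1 and just above WT for Notch1 and Notch2.

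Among the receptors, Notch3 was the one that changed. Notch3 encodes a receptor best known from the smooth muscle of vessels (NM_008716, chr17:32120820-32166896, minus strand, mm10). It gave 5353, 5056 and 4919 normalized reads in WT and 1731, 1671 and 1749 in DKO. All 3 DKO libraries sat close together and far below WT, and the highest of them reached 35.6% of the lowest WT library. The mean fell from 5109.5 ± 222 to 1717 ± 41.0 normalized reads (SD, n = 3 per group), a 2.98-fold drop, and the log2 fold change came to -1.57 ± 0.03 (SE, limma adjusted p = 4.56e-23). In the order of all tested genes from the most lowered, Notch3 held rank 239 of 17038. An antisense transcript, Gm17276, spans 45.6% of the Notch3 gene body and was not analysed here. Whether the counting used strand is not given in the sources used here, so reads of the pair may be mixed.

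Notch1 and Notch2, the widely expressed receptors, did not pass the fold threshold. Notch1 (NM_008714, chr2:26457902-26503822, minus strand) gave 1056, 1055 and 1135 normalized reads in WT and 1371, 1354 and 1348 in DKO. Every DKO library lay above every WT library, but the difference was small, and the log2 fold change came to 0.33 ± 0.04 (SE, 95% interval 0.24 to 0.41, limma adjusted p = 1.92e-07), or 1.25-fold. Notch2 (NM_010928, chr3:98013538-98150367, plus strand) gave 5479.8, 5252 and 5469 in WT and 5528, 5520.2 and 5672 in DKO. These groups lay next to each other without overlap, and the log2 fold change was 0.05 ± 0.03 (SE), with a 95% interval of -0.01 to 0.10 and a limma adjusted p = 0.167. The receptors thus differed among themselves under the same contrast, and the ratio of Notch3 to Notch1 within a library, on reads per kilobase of gene body, was 5.05, 4.78 and 4.32 in WT and 1.26, 1.23 and 1.29 in DKO (exact permutation test, two-sided, p = 0.1, the smallest that 3 against 3 allows).

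The stretches upstream of Notch3 and Notch1 are shown because these receptors differed most in response. Each is the 250 bases before a RefSeq start site (GRCm38.p6, the mm10 assembly), read 5′ to 3′ on the gene's strand, and capitals mark CAGAC or GTCTG, the short Smad-binding element on either strand. The Notch3 stretch lies at chr17:32166891-32167140 and the Notch1 stretch at chr2:26503823-26504072, both on the minus strand.
Notch3: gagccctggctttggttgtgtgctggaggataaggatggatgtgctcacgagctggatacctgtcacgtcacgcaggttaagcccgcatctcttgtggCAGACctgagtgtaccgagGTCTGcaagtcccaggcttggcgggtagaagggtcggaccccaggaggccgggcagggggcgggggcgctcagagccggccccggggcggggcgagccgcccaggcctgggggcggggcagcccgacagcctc
Notch1: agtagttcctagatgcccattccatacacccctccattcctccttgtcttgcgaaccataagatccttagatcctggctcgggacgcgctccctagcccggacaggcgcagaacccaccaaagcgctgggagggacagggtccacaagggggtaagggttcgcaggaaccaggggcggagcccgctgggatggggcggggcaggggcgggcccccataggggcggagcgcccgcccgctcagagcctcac
The Notch3 stretch held CAGAC on either strand at 152 and 133 bases before the start and the Notch1 stretch held none, while 49.6% of all 32851 promoter windows of 300 bases (250 before to 50 after the start) held it. Neither window held TGGGAA or TTCCCA, the core of the Rbpj site, which 25.6% of all windows held. The GC content of the stretches was 68.8% and 66.0%. These matches describe letters only and do not show binding.

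Among the 4 ligands, Dll1 and Dll3 of the Delta family fell, and Jag1 and Jag2 did not pass the fold threshold. Dll3, a divergent Delta protein that stays largely inside the cell and does not activate receptors on neighbours, was the ligand with the lowest DKO level relative to WT. Dll3 (NM_007866, chr7:28293555-28301785, minus strand) gave 376, 368 and 353 normalized reads in WT and 119, 116 and 92.3 in DKO. The DKO libraries were well separated from WT, with the third DKO library a little below the other two. The mean fell from 366 ± 12.0 to 109 ± 14.8 normalized reads (SD, n = 3 per group), 3.35-fold, and the log2 fold change was -1.74 ± 0.10 (SE, limma adjusted p = 2.02e-14, rank 184 of 17038 from the most lowered).

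Dll1, the Delta ligand that activates receptors across the cell boundary, followed in the same direction. Dll1 (NM_007865, chr17:15367354-15376932, minus strand) gave 1717, 1795 and 1835 normalized reads in WT and 791, 769 and 791 in DKO. The 3 DKO libraries were nearly equal and the highest of them stood at 46.1% of the lowest WT library. The mean fell from 1782 ± 60.1 to 784 ± 12.7 (SD, n = 3 per group), 2.27-fold, and the log2 fold change came to -1.18 ± 0.04 (SE, limma adjusted p = 1.12e-18). A long non-coding gene on the other strand, A930024N18Rik, overlaps 20.2% of the Dll1 gene body and was not analysed here.

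Jag1 and Jag2 are the Jagged ligands, which bind the same receptors. Jag1 (NM_013822, chr2:137081451-137116520, minus strand) gave 691, 792 and 761 normalized reads in WT and 589.8, 576 and 524 in DKO. The groups did not overlap, and the DKO mean was 75.3% of WT (log2 fold change -0.41 ± 0.06, SE, 95% interval -0.53 to -0.29, limma adjusted p = 1.43e-06). Jag2 (NM_010588, chr12:112907803-112929812, minus strand) gave 651, 637 and 642 in WT and 569, 585 and 588 in DKO, and the log2 fold change came to -0.15 ± 0.05 (SE, limma adjusted p = 0.0163). Both Jagged genes were thus below WT in all 3 DKO libraries, by less than the 1.5-fold threshold.

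The upstream stretches of the lowered Delta genes are shown in the same way, that of Dll1 after its values were seen. Dll3 has 1 RefSeq window, whose stretch is chr7:28301786-28302035 on the minus strand. Dll1 has 2 windows, and the stretch shown belongs to the outer start site, chr17:15376933-15377182 on the minus strand.
Dll3: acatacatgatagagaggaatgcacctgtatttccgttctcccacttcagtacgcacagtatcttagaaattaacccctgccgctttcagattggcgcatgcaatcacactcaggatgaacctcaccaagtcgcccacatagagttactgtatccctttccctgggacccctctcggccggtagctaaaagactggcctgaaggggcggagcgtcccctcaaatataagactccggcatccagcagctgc
Dll1: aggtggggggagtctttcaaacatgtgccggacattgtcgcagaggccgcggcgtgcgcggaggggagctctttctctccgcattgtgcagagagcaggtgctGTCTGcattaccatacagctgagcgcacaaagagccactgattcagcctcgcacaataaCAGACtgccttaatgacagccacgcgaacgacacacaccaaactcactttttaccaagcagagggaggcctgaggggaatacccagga
The Dll1 stretch held CAGAC on either strand at 147 and 88 bases before the start. The Dll3 window held none of the motifs searched on either strand, which were TGGGAA (held by 25.6% of all windows) and its longer form GTGGGAA (held by 6.38%), the Smad element CAGAC (49.6%), the Bmp-type Smad element GGCGCC (held by 11.9%), and for Hes and Hey factors the site CACGNG (held by 27.5%) and the site CACNAG (held by 42.5%). The inner Dll1 window, which is not printed, held CAGAC at 122, GGCGCC at 169 and CACGNG at 105 bases before its start. The outer Dll1 window also held CACGNG at 68 bases before its start and CACNAG at 13 bases after it. CAGAC was thus found upstream of one lowered Delta gene and not in the window of the other.

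Among the targets, Hes1 was lowest relative to WT of all 10 genes. Hes1 encodes a basic helix-loop-helix repressor and is the textbook output of the pathway. Hes1 (NM_008235, chr16:30065357-30067796, plus strand) gave 286, 312 and 297 normalized reads in WT and 65.7, 52.5 and 50.8 in DKO. The highest DKO library stood at 23.0% of the lowest WT library. The mean fell from 298 ± 13.1 to 56.3 ± 8.12 normalized reads (SD, n = 3 per group), 5.29-fold, and the log2 fold change came to -2.39 ± 0.11 (SE, 95% interval -2.62 to -2.16, limma adjusted p = 6.51e-16). Rank 65 of 17038 placed it among the most lowered genes of the table.

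Hey1 and Hey2 encode related repressors with a Hairy and Enhancer-of-split core, and both were scarce. Hey1 (NM_010423, chr3:8663359-8667038, minus strand) gave 33.8, 31.3 and 28.8 normalized reads in WT and 11.8, 8.41 and 14.5 in DKO, which rest on 54 to 63 reads and 16 to 28 reads per library. The groups did not overlap, and the mean fell from 31.3 ± 2.52 to 11.6 ± 3.06 (SD, n = 3 per group), and the log2 fold change came to -1.39 ± 0.25 (SE, 95% interval -1.91 to -0.86, limma adjusted p = 5.03e-05). Hey2 (NM_013904, chr10:30832359-30842783, minus strand) gave 5.37, 5.69 and 4.27 in WT and 5.38, 7.35 and 4.15 in DKO. Hey2 was near the bottom of what the depth can show, with 8 to 14 reads in every library, and its groups overlapped. A difference in Hey2 was not detectable at this depth, and the 95% interval of its log2 fold change ran from -0.76 to 0.95 (limma adjusted p = 0.863).

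The Hey2 stretch, chr10:30842784-30843033 on the minus strand, is shown because it was the member window that held the Rbpj core. Capitals here mark TTCCCA, the reverse complement of the core.
Hey2: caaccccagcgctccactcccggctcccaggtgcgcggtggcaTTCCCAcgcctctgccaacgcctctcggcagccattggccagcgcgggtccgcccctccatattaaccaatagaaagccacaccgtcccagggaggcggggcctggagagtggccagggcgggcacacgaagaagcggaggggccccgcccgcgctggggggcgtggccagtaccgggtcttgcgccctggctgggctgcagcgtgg
The marked core starts 207 bases before the start site and, with the following base, also fits the longer form GTGGGAA, which 6.38% of all windows held. A further copy begins 3 bases before the start and runs past it, outside the printed stretch. Of the 10 genes, 8 had a RefSeq window, and windows for Hes1 and Hey1 were not analysed here. Among the 8, CAGAC was found for 3, namely Notch3, Dll1 (in both of its windows) and Jag1. TGGGAA was found for Hey2 alone, the gene whose level was lowest and whose groups overlapped.

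**Figure D2:**
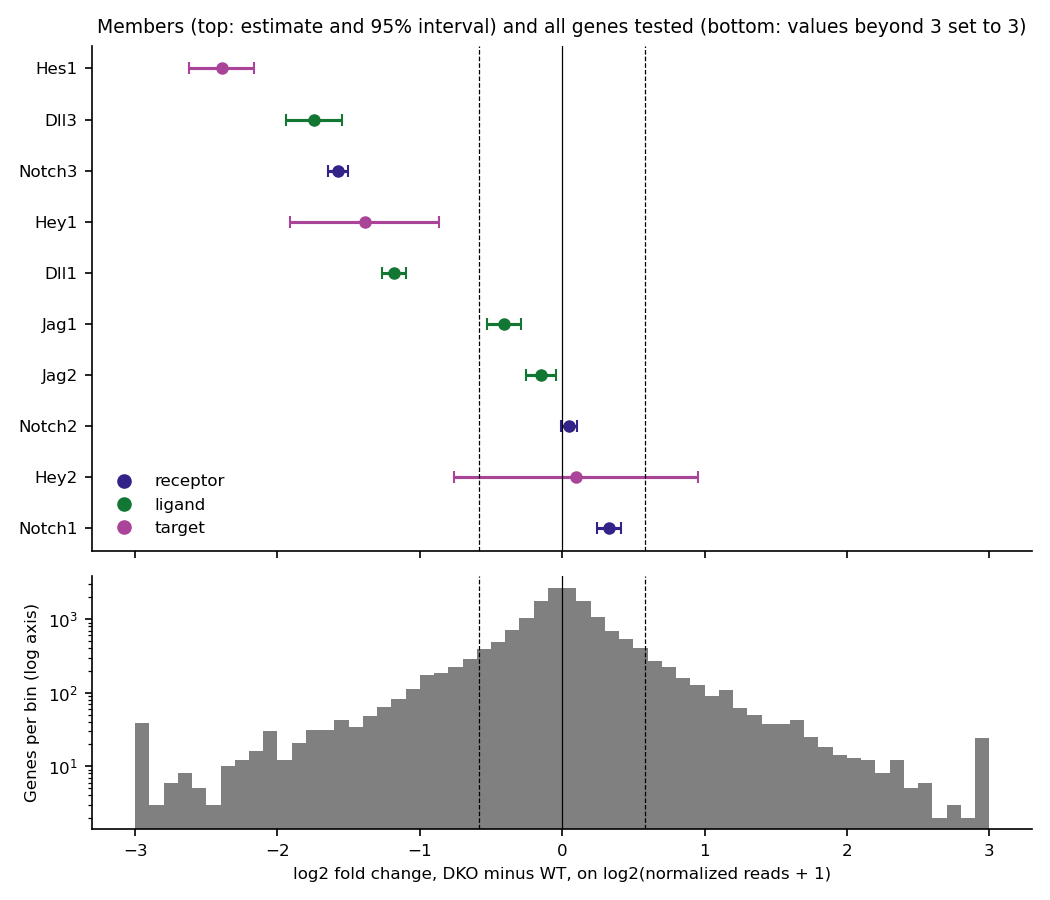
Log2 fold changes of DKO over WT on log2(normalized reads + 1), with the 10 Notch genes above (points are estimates and bars 95% intervals) and the number of genes per bin for all 17038 tested genes below (log axis, values beyond 3 set to 3). Dashed lines mark the 1.5-fold threshold. Hes1, Dll3, Notch3, Hey1 and Dll1 lie left of the line, from -2.39 to -1.18, and the estimates of the other 5 genes lie between the lines, with the interval of Hey2 crossing both.

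The makeup of the receptor and ligand pools was then described on reads per kilobase of gene body. Because introns are counted, this scale mixes spliced and unspliced RNA, and exons make up from 7.67% of the gene body for Notch2 to 65.8% for Hey1. It therefore does not rank different genes by their amount of spliced RNA. The receptor sum was 174 ± 4.59 in WT and 108 ± 1.36 in DKO, 61.8% of WT (SD, n = 3 per group). Notch3 made up 63.7% ± 1.32 of that sum in WT and 34.6% ± 0.400 in DKO. The share of Notch2 was 22.7% ± 0.533 in WT and 37.9% ± 0.351 in DKO, so that Notch2 took the first place in DKO. The share of Notch1 was 13.6% ± 0.803 in WT and 27.5% ± 0.440 in DKO. On this scale the receptor pool was mostly Notch3 in WT and held similar parts of Notch2, Notch3 and Notch1 in DKO. Without length scaling, Notch2 gave a mean of 5400 normalized reads in WT and 5573 in DKO, beside 5110 and 1717 for Notch3. The Notch2 body is 137 kilobases long and that of Notch3 46.1, so the shares depend on the length used. These shares are given as a description and were not tested.

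The ligand pool kept its leading member. The ligand sum per kilobase was 281 ± 5.98 in WT and 138 ± 2.18 in DKO, 48.9% of WT (SD, n = 3 per group). Dll1 made up 66.2% ± 0.904 in WT and 59.5% ± 1.32 in DKO. Dll3 held 15.8% ± 0.825 in WT and 9.64% ± 1.18 in DKO. The Jagged genes held larger shares in DKO, with 7.58% ± 0.387 against 11.7% ± 0.563 for Jag1 and 10.4% ± 0.327 against 19.2% ± 0.631 for Jag2. The target sum was 131 ± 5.15 in WT and 26.8 ± 3.37 in DKO, 20.4% of WT. Hes1 made up most of it in both groups.

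**Figure D3:**
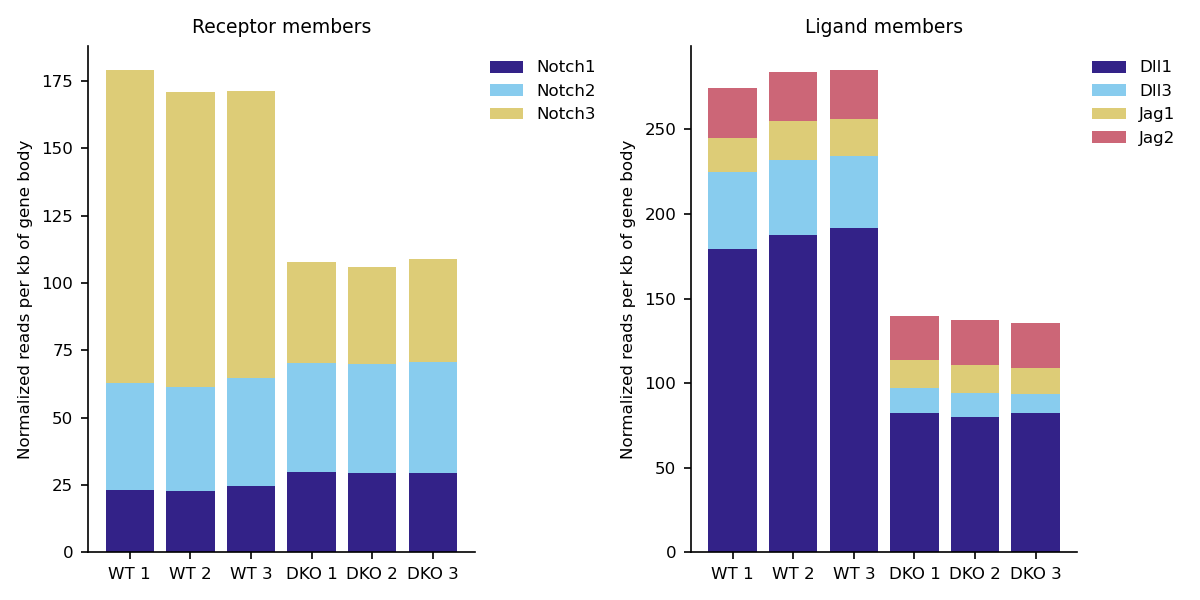
Normalized reads per kilobase of gene body (y axis, from 0) in each of the 6 libraries, stacked for the 3 receptors on the left and the 4 ligands on the right. The receptor stacks reach 171 to 179 in WT and 106 to 109 in DKO, and only the Notch3 segment is smaller in DKO. The ligand stacks reach 274 to 285 in WT and 135 to 139.8 in DKO, and most of this difference is the Dll1 segment.

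In WT, the order of levels per kilobase ran Dll1, Hes1, Notch3, Dll3, Notch2, Jag2, Notch1, Jag1, Hey1 and Hey2, from 186 ± 6.28 for Dll1 to 0.490 ± 0.0717 for Hey2 (SD, n = 3), and the ranges of no neighbours overlapped. In DKO the order was Dll1, Notch2, Notch3, Notch1, Jag2, Hes1, Jag1, Dll3, Hey1 and Hey2. Dll1 stayed first at 81.8 ± 1.32, while Hes1 was second in WT at 122 ± 5.37 and sixth in DKO at 23.1 ± 3.33, where its range overlapped that of Jag2 at 26.4 ± 0.467. Dll3 moved from the fourth place to the eighth. The order depends on the gene body length used and was not computed per kilobase of exon. Exons make up 37.4% of the Dll1 body, 60.2% of that of Hes1 and 7.67% of that of Notch2. For Dll1 the span of the GENCODE transcript, 8.62 kilobases, is shorter than the RefSeq body of 9.58 kilobases used here.

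Ratios between pairs of these genes within a library do not depend on how libraries were scaled. Of the 6 ratios computed, all on reads per kilobase of gene body, none overlapped between WT and DKO. Their size therefore depends on the gene body lengths. Without length scaling, Jag1 had a WT mean of 748 normalized reads and Jag2 one of 643. The share of other gene pairs without overlap was not computed, and for single genes it was 59.0% of all tested. Each ratio reached a two-sided exact permutation p of 0.1, also 0.1 after adjustment over the 6. This is the smallest value possible with 3 against 3. The ratio of Dll1 to Dll3 was 4.20 ± 0.275 in WT and 6.25 ± 0.967 in DKO. The ratio of Notch1 to Notch2 was 0.597 ± 0.0222 against 0.726 ± 0.0161, and that of Jag1 to Jag2 was 0.730 ± 0.0578 against 0.609 ± 0.0465. Hes1 stood at 14.4 ± 1.49 times Hey1 in WT and 7.69 ± 2.15 times in DKO, and Hey1 at 17.5 ± 1.79 times Hey2 in WT and 6.46 ± 3.34 times in DKO (SD, n = 3 per group in each case). The widest differences on the log2 scale were those of Notch3 to Notch1, at -1.90, and of Hey1 to Hey2, at -1.58, the latter resting on the few reads of Hey2.

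Other genes of the pathway were read from the same test. The list held 70 gene symbols, of which 69 were in the table and 65 passed the filter. Of these, 7 were lower, 3 were higher and 55 were not called, which makes 15.4% called, the same share as among all genes (15.4%), and 10.8% lower, beside 8.04% of all genes. Their median log2 fold change was -0.02. No call was made among the 5 further receptors and ligands, the 6 genes of ligand ubiquitination, the 10 of receptor cleavage or the 14 corepressors.

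The calls in the signal-receiving machinery lay in the nuclear complex, in receptor turnover and in receptor glycosylation. Rbpj, the DNA-binding partner of the Notch intracellular domain, gave 1918, 1928 and 1837 normalized reads in WT and 3972, 3821 and 4024 in DKO. All DKO libraries were about equal and above WT, and the mean rose 2.08-fold (log2 fold change 1.06 ± 0.03, SE, limma adjusted p = 1.07e-19). Maml3, a coactivator that binds the Rbpj complex, rose from 68.1 ± 9.84 to 106 ± 9.31 (SD, n = 3 per group, log2 fold change 0.63 ± 0.13, SE, limma adjusted p = 0.000263). The Maml3 call was lost with a pseudocount of 10 (log2 fold change 0.57) and without WT replicate 1 (0.58) or WT replicate 2 (0.57). Maml1, the best studied coactivator, was not called at 880.3 ± 33.5 and 840.0 ± 12.9 (limma adjusted p = 0.228), and an antisense transcript covers most of its body.

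Of the 5 Deltex genes, which encode ubiquitin ligases linked to Notch receptors, 1 rose and 2 fell. Dtx1 and Dtx3, named after their values were seen, were not called, with log2 fold changes of -0.47 and -0.18. Dtx2 rose from 1412 ± 46.3 to 2739 ± 73.9 normalized reads (SD, n = 3 per group), and the log2 fold change came to 0.96 ± 0.04 (SE, limma adjusted p = 6.80e-18). Dtx4 fell from 1242 ± 23.5 to 592 ± 22.2, the log2 fold change being -1.07 ± 0.05 (limma adjusted p = 1.18e-16). Dtx3l, whose protein is best known as the partner of Parp9 in the response to DNA damage, fell from 841 ± 21.9 to 283 ± 28.3, the log2 fold change being -1.57 ± 0.07 (limma adjusted p = 5.79e-17). Mfng, a Fringe enzyme that adds sugars to Notch receptors, fell from 222 ± 26.7 to 124 ± 4.19 (log2 fold change -0.83 ± 0.10, limma adjusted p = 8.58e-08). Its relative Lfng was not called, with 173, 188 and 165 in WT and 170.1, 221 and 179 in DKO.

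Of 8 further Hes, Hey and feedback target genes, 5 could be tested and 4 of these were lower, beside 8.04% of all genes. Hes6, a family member known to counteract Hes1, was the abundant one. It fell from 1621 ± 81.0 to 1015 ± 34.7 normalized reads (SD, n = 3 per group, log2 fold change -0.67 ± 0.04, SE, limma adjusted p = 5.28e-13). Hes2, Hes3 and Helt, related repressors, fell at low counts. Their log2 fold changes were -1.58 ± 0.29, -0.91 ± 0.29 and -1.78 ± 0.49 (limma adjusted p = 6.01e-05, 0.00932 and 0.00369), and Helt had only 2 to 4 reads in each DKO library. The Hes3 call was lost with a pseudocount of 10 (-0.55), and the value of Helt ran from -2.37 with DESeq2 to -0.59 with that pseudocount. Nrarp, a feedback inhibitor, gave 79.0, 65.4 and 69.3 in WT and 45.2, 55.7 and 43.5 in DKO and just missed the fold threshold (log2 fold change -0.56 ± 0.15, limma adjusted p = 0.00339). It passed without WT replicate 2 (-0.62) or without DKO replicate 2 (-0.67), and an antisense transcript covers 99.1% of its body. Hes5, Hes7 and Heyl were too scarce to test, at 0 to 2.15, 0 to 2.13 and 1.05 to 6.45 normalized reads, Hes7 being named after its values were seen.

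All genes of ligand ubiquitination and receptor cleavage stayed within 1.5-fold. Mib1, the ligase that lets ligands be internalised, differed by -0.18 ± 0.03 on the log2 scale (SE, limma adjusted p = 1.26e-05). Adam10, the protease of the first cut, had 0.36 ± 0.06 (limma adjusted p = 4.88e-06). Both passed the p threshold and stayed within 1.5-fold. Mib2, a further gene of ligand ubiquitination named after its values were seen, came nearer to the fold threshold. Its log2 fold change was 0.51 ± 0.04 (SE, limma adjusted p = 1.96e-11). Of the other receptor and ligand genes, Notch4 had 0.46 ± 0.19 (limma adjusted p = 0.0464) and Dll4 0.14 ± 0.25 (limma adjusted p = 0.667), both at no more than 44.6 normalized reads in any library.

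**Figure D4:**
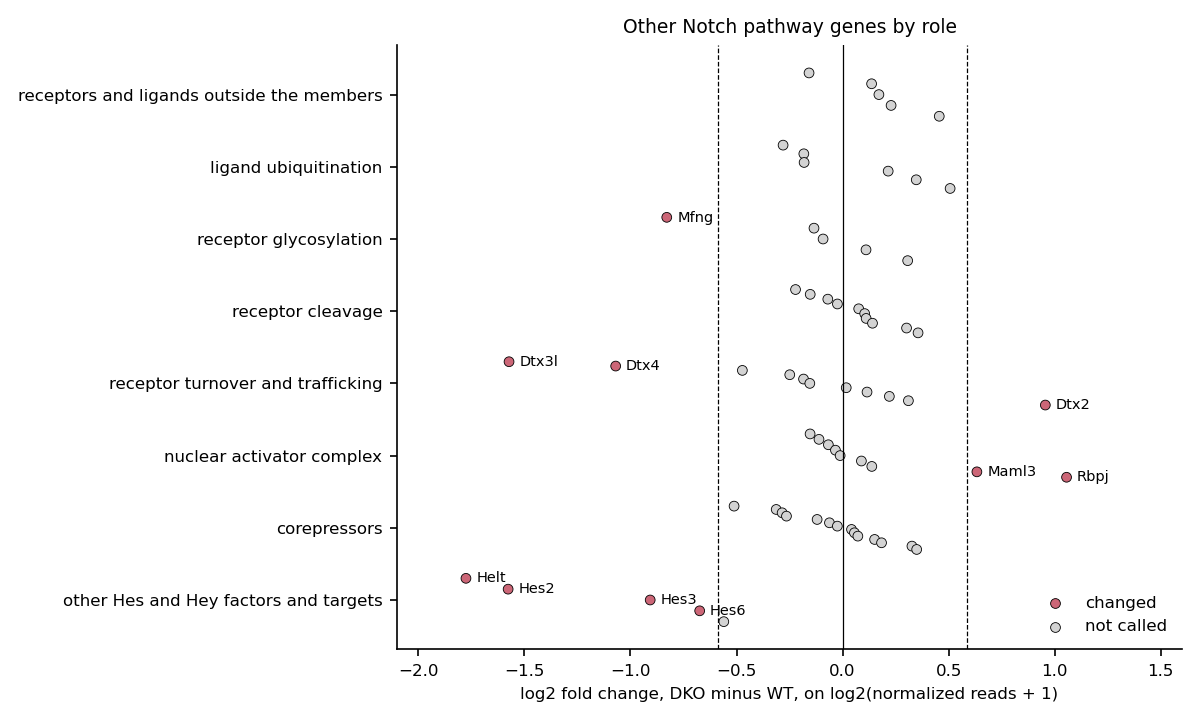
Log2 fold changes of DKO over WT (x axis) for the 65 tested genes of the Notch pathway outside the 10, in rows by role, where vertical offsets within a row only part the points. Dashed lines mark the 1.5-fold threshold, and the 10 changed genes are named. Rbpj, Dtx2 and Maml3 lie to the right, from 0.63 to 1.06, Dtx3l, Dtx4, Mfng, Hes2, Hes3, Hes6 and Helt lie to the left, and ligand ubiquitination, receptor cleavage and corepressors lie wholly between the lines.

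Markers of other cells moved with genotype as well, and their part in the Notch values was not tested. Summed normalized reads of 9 naive ESC markers were 3774 to 4016 in WT and 6477 to 6695 in DKO, with 7 of 9 higher. For 9 trophoblast markers they were 1992 to 2074 and 4238 to 4648, with 7 of the 8 tested higher and Elf5 at 0 to 3.11. Most of the trophoblast sum was Fgfr2, at a mean of 737 in WT and 2208 in DKO, and Krt18, which was not called. The 8 epiblast markers, of which 4 were lower and 1 was higher, had sums of 119896 to 123997 in WT and 110034 to 111311 in DKO. Most of the epiblast sum was Dnmt3b and Pou5f1, which were not called. For cells in which the Notch genes are well known, the early mesoderm sum was 524 to 573 and 492 to 549.5. Most of it was Eomes, which was higher in DKO, at a mean of 305 in WT and 469 in DKO. T, Mixl1, Tbx6 and Fgf8 were lower, and Mesp1 and Msgn1 lay under 5 normalized reads. The neural progenitor sum was 1018 to 1080.1 and 777 to 847, most of it Nes, which was not called (log2 fold change -0.53), with Sox1 and Pax3 lower, Pax6 higher and Neurog2, Fabp7 and Olig2 too scarce to test. The endothelial sum was 1237 to 1296 and 2742 to 3007, most of it Pecam1, with Pecam1, Kdr and Tek higher and Tie1 lower of the 5 tested and the defining genes Cdh5 and Emcn under 3 normalized reads throughout. The fibroblast sum was 1624 to 1689 and 521 to 571, most of it Dcn, with Dcn and Col1a2 lower and the other 4 tested not called. The extra-embryonic endoderm sum was 99.9 to 123 and 173 to 187, with Gata6 and Pdgfra higher, the other 4 tested not called and Ttr at 0 to 1.14. Id1, Id2, Id3 and Id4, targets of Bmp signals that encode partners of basic helix-loop-helix proteins, summed to 578 to 648 in WT and 8754 to 9729 in DKO, and all 4 rose.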

How the data were processed

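RNA from 3 WT and 3 DKO EpiLC samples (800 ng total RNA each, ribosomal RNA depleted) was sequenced in stranded libraries, with 75-cycle paired-end reads. Per the study's methods, ribosomal reads were removed with Bowtie2, the rest aligned to mm10 with STAR, duplicates removed with SAMtools and reads counted over refGene gene bodies. Versions and the use of strand are not given in the sources used here. The authors' deposited table holds a signal, the read count of each row over its library's size factor (1.76 to 1.93), and dividing by the value of 1 read gave whole reads for 100% of values (within 0.05). Entries of 1 gene span that differ in exons by at least 100 bases had identical values in 96.8% of 189 pairs, so introns are counted. The deposited comparison table (log2 fold changes, errors, p-values) was not used. Rows without a symbol (138, 0.517% of reads) were left out.

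The test was limma (version 3.58.1, R 4.3.3) with a variance trend on log2(signal + 1), over 17038 genes passing filterByExpr of edgeR (version 4.0.16) on recovered reads, with Benjamini-Hochberg adjustment over all of them. This scale understates changes of genes with few reads. The calls used an adjusted p under 0.05 and a fold above 1.5, as in the study. Fits were tested on simulated data. Alternatives were edgeR and DESeq2 (version 1.42.0) on recovered reads, other pseudocounts, filters and scalings, treat, a replicate block and leaving out each library. Replicate numbers did not pair the libraries: the deviations of same-numbered libraries correlated at 0.00881, -0.0293 and 0.0365 over 11930 genes. Within-library ratios, on reads per kilobase of gene body, were compared with exact permutation tests. Positions, starts and promoters came from RefSeq (GRCm38.p6), overlapping genes and exon lengths from GENCODE.

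The genes and lists were chosen with earlier results of these data known. Named genes are the 10, Smad2, Smad3, the called genes and named core genes of a pathway list, and markers. A gene that this rule selects is not reported here. Errors cover these samples and counting only, and reads lack molecular identifiers and so are not independent molecules. Whether both mates of a read pair were counted is not given in the sources used here. Every read count of Hey2 and Helt was even, so fragments may be fewer than reads.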

Additional observations from a re-analysis of the deposited data

How the results depend on the processing

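The 5 lowered Notch genes kept their direction and their call under every alternative that could test them, including edgeR, DESeq2, TMM factors, library size only, treat and leaving out each library. The exception is a filter at a mean of 50 normalized reads, which removed Hey1 and Hey2 and left 4. Without the fold threshold 8 of the 10 passed, 7 lower and 1 higher. Leaving out 1 library gave 5 each time. Hey2 had no stable sign: its log2 fold change was -0.01 without WT replicate 3 and -0.085 without DKO replicate 2, within -0.085 to 0.26 over all such fits. Without DKO replicate 2, Lfng (-0.00249, up to 0.19 without another library) and Dll4 (-0.016, up to 0.38) also changed sign. None of these was called.

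The count of changed genes was 2623, and 1588 with the filter at 50, 1115 with treat and 9098 without the fold threshold. It was 2529 to 2610 without 1 library, 2638 with edgeR and 2475 with DESeq2. The other pathway genes gave 10 calls, 5 with treat, 41 without the fold threshold and 9 to 11 without 1 library. With replicate number as a block, for samples that share a number and no known pairing, 2602 genes, 5 of the 10 Notch genes and 10 other pathway genes were called. The 8 alternatives could not change the direction of the 6 ratios and so are no check of it. Each of the 10 genes has 1 row, and length scaling multiplies a ratio by a constant. Groups that do not overlap keep their order when 1 library is left out. With 3 libraries per group the exact test of the ratios cannot go below 0.1. Low counts limit Hey2, Hey1, Hes2, Hes3 and Helt, and left Rbpjl, Hes5, Hes7 and Heyl untested.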
